A study of Mus musculus with 8 samples.

Results

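The 9 genes described here are 7 that cause or have been linked to inherited parkinsonism (Park7, Pink1, Lrrk2, Vps35, Uchl1, Atp13a2 and Fbxo7) and 2 of mitochondrial quality control (Mul1 and Spata18), out of 19938 genes with a probe set of their own on the array. They were measured in the striatum, where the axons of midbrain dopamine neurons end, in 8 male C57BL/6 mice. A gene counted as measured by every probe set to which the platform annotation gave that 1 symbol, which found all 9 genes through 10 probe sets, with 2 for Lrrk2. The genes were chosen by disease knowledge with earlier results of the same arrays in view, and Mul1 was already known to be among the clearest differences between MPTP and control mice. Spata18 joined it as a second gene of mitochondrial quality control. The values of these 2 are therefore given as a description, without a test, and the other 7 were tested in a model fitted to all probe sets. Each value is a log2 intensity, so a difference of 1 is a doubling.

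The mice were 6 weeks old and in 4 groups, with 2 arrays per group and 1 mouse named for each array. Controls had daily injections of saline for 4 weeks. The other 6 mice had MPTP, a toxin whose metabolite blocks the respiratory chain and is taken up by dopamine neurons, at 20 mg/kg every 24 h for those 4 weeks. The MPTP group had nothing more, while the other 2 groups also had 14 needling sessions 48 h apart. Needles went into the acupoints GB34 (to 3 mm) and LR3 (to 1 mm) in the acupoint group, and to 3 mm into the hips in the non-acupoint group. A needled group without MPTP was not analysed here, so needling was seen only on top of MPTP. The comparisons ask what MPTP did to these genes, whether needling went with other levels, and whether the needled site mattered.

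Damaged mitochondria are removed by mitophagy, a selective form of autophagy. The kinase PINK1 builds up on mitochondria that have lost their membrane potential and marks them with phosphorylated ubiquitin, after which ubiquitin ligases, adaptors and the autophagosome take over. Other parkinsonism genes act in the steps around it, in the response to oxidation (DJ-1, the product of Park7), in ubiquitin handling (Uchl1, Fbxo7), in sorting between endosome and lysosome (Vps35, Lrrk2) and in the lysosome itself (Atp13a2). MUL1, a ubiquitin and SUMO ligase of the outer mitochondrial membrane, and SPATA18, also called MIEAP, a p53-inducible protein of mitochondrial quality control, are parts of routes that run beside PINK1.

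The arrays differed in markers of cell types and neighbouring regions. Markers of medium spiny neurons, the main neurons of the striatum, were present in every array, and 13 of 15 listed were tested. Relative to the control mean, they averaged -2.04 in MPTP mouse 1 (all 13 lower) and 0.34 in MPTP mouse 2 (all 13 higher), against -0.63 to 0.22 in the needled mice. Drd1, which encodes a dopamine receptor, read 10.29 and 10.32 in control mice but 7.93 in MPTP mouse 1 and 10.68 in MPTP mouse 2. The 12 thalamus markers ran the other way, at 2.25 and -0.52 in MPTP mice 1 and 2. The 9 choroid plexus markers tested were high in 4 mice, with means of 2.41 (MPTP mouse 1), 2.50 (acupoint mouse 1) and 2.31 and 2.98 (non-acupoint mice), against -0.19 (MPTP mouse 2) and 0.19 (acupoint mouse 2). The 2 MPTP mice thus lay far apart in these markers, and the values of the 9 genes are given per mouse or as a range. The thalamus markers were also high in non-acupoint mouse 2 (1.46), against 0.28 in non-acupoint mouse 1 and 0.66 and -0.05 in the acupoint mice. In bulk tissue, fewer cells of a type and less RNA per cell cannot be told apart.

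**Figure D1:**
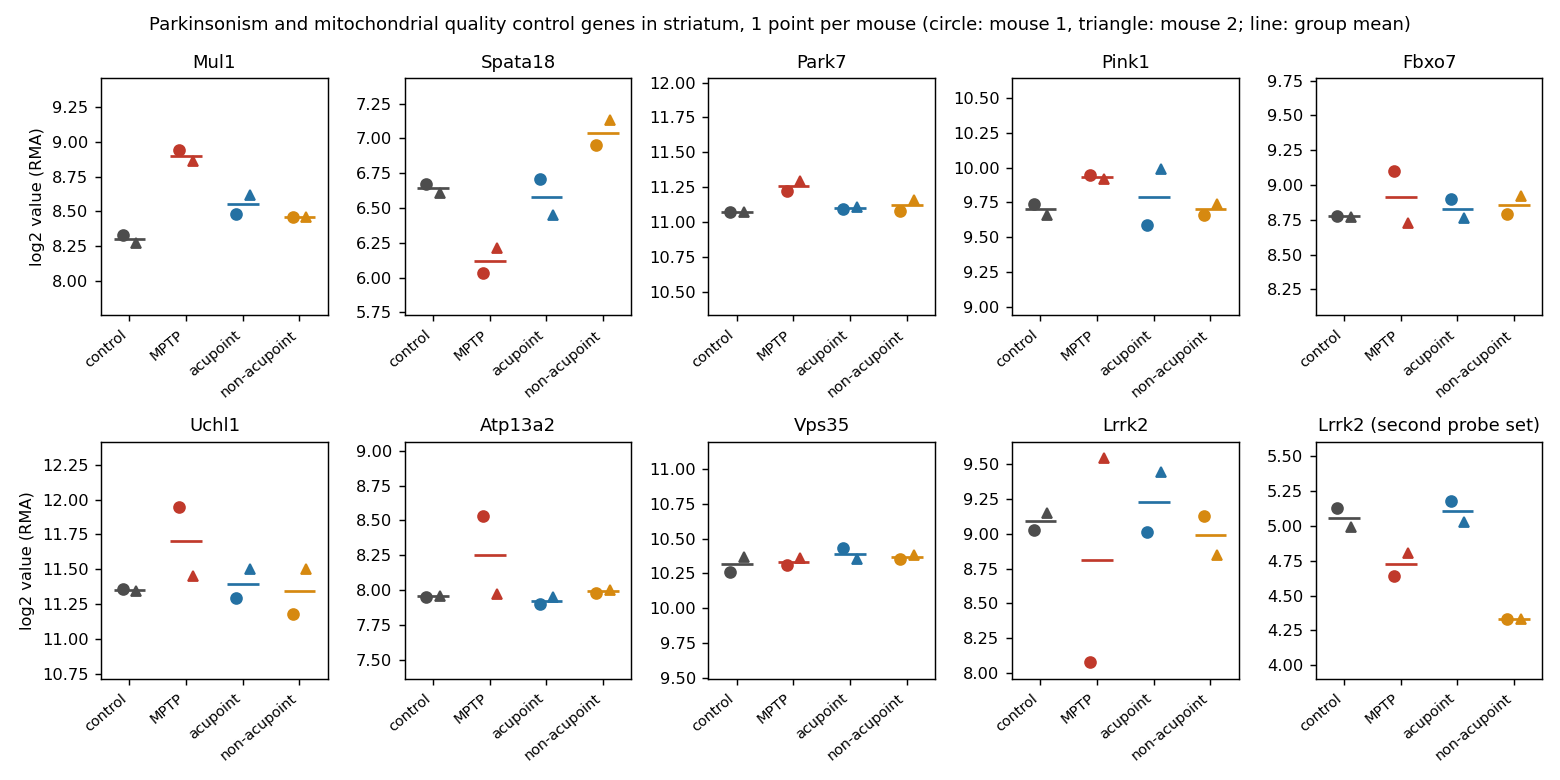
Log2 values of the 10 probe sets (vertical axis, the same span of 1.7 in each panel but centred on each gene) in the 4 groups (horizontal axis), with circles for mouse 1, triangles for mouse 2 and a line at the group mean. Both MPTP mice sit above all others for Mul1 and Park7 and below all others for Spata18, while the MPTP mice lie far apart for Lrrk2, Atp13a2 and Uchl1.

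The stretches of 250 bases before the annotated starts of Mul1, Park7 and Spata18 are shown because in these genes both MPTP mice lay outside the values of all other mice. They come from RefSeq on build GRCm38, which had an entry for 8 of the 9 genes. Mul1 is at chr4:138434422-138434671 on the plus strand, Park7 at chr4:150909922-150910171 on the minus strand and Spata18 at chr5:73651130-73651379 on the plus strand. Each is written 5′ to 3′ on the gene's own strand and ends at the base before the start, with capitals for motif matches on either strand.
Mul1: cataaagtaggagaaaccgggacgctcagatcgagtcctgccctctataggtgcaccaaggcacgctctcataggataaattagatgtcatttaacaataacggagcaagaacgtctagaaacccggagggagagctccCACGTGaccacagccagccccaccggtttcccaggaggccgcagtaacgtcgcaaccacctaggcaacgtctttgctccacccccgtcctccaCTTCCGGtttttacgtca
Park7: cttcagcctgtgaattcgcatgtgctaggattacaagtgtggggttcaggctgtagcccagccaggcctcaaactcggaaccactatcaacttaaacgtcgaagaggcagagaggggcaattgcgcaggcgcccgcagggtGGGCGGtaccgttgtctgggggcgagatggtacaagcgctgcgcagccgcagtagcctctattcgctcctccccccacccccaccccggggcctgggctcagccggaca
Spata18: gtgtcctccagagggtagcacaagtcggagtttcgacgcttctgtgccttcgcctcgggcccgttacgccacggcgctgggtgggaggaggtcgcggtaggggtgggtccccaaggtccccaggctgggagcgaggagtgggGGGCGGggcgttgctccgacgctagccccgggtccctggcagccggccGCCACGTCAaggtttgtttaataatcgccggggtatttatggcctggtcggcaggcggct

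A set of 9 motifs was searched on both strands of these stretches, and their matches here do not overlap. They were the E-box core CACGTG, which lysosomal and autophagy genes often carry, the antioxidant response element core TGACNNNGC, the GC box GGGCGG, the ETS core CCGGAAG, the NRF1 core GCGCATGCG, the CCAAT box, the TATA box TATAAA, the forkhead core GTAAACA and the p53 half-site. Mul1 held an E-box core that began 111 bases before the start, found in 6.02% of the 32851 mouse promoter stretches of that length, and an ETS core at 18 bases, found in 6.91%. Spata18 held an antioxidant response element core at 60 bases, found in 10.2% of stretches, and a GC box at 108 bases. Park7 held a GC box at 109 bases, and GC boxes were found in 32.7% of stretches. The p53 half-site, present in 7.13% of stretches, had no match in the Spata18 stretch, which says only that these letters are not in this window. A match is a description of the sequence and not of a bound site.

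Mul1 was highest in the MPTP mice. Its log2 values were 8.33 and 8.27 in control mice, 8.94 and 8.86 in MPTP mice, 8.48 and 8.62 in acupoint mice and 8.46 and 8.46 in non-acupoint mice. Every group was separate from the next, in the order MPTP, acupoint, non-acupoint, control, though the last 3 lay within 0.25 of one another. The MPTP mean exceeded the control mean by 0.60 (SE 0.10), a ratio of 1.52. The acupoint and non-acupoint means were below the MPTP mean by differences of -0.35 (SE 0.10) and -0.44 (SE 0.10). All 3 differences use the MPTP arrays by which Mul1 was chosen, so nothing is read from their size. The 2 MPTP mice differed by 0.09 in Mul1, and their medium spiny neuron markers stood at -2.04 and 0.34. Markers of ependymal cells, described below, were low in both, at -0.53 and -0.34. The part of cell content in the Mul1 values was not tested. With MPTP mouse 1 left out the excess over controls was 0.56, and with MPTP mouse 2 left out it was 0.65. Against controls, which these comparisons share, the acupoint mice stood at 0.25 (SE 0.10) and the non-acupoint mice at 0.16 (SE 0.10). All 6 MPTP-treated mice were above both controls, and the mean of their groups exceeded controls by 0.34 (SE 0.08). The acupoint excess was 0.32 without acupoint mouse 1 and 0.18 without acupoint mouse 2. The difference between the needled groups, 0.09, was 0.15 and 0.02 in those settings.

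Spata18 ran in the opposite direction under MPTP and was highest after needling at the hips. Its log2 values were 6.67 and 6.61 in control mice, 6.03 and 6.21 in MPTP mice, 6.71 and 6.45 in acupoint mice and 6.95 and 7.13 in non-acupoint mice. Both MPTP mice were below all 6 others and both non-acupoint mice above all 6 others, while acupoint and control mice overlapped. The MPTP mean was below the control mean by a difference of -0.52 (SE 0.13), a ratio of 0.697. The acupoint mean was 0.46 (SE 0.13) above the MPTP mean and the non-acupoint mean 0.92 (SE 0.13), a ratio of 1.90. Against controls the acupoint difference was -0.06 (SE 0.13) and the non-acupoint difference 0.40 (SE 0.13), and the acupoint mean was below the non-acupoint mean (-0.46, SE 0.13). The acupoint mice were themselves spread, and the acupoint difference from controls was -0.19 without acupoint mouse 1 and 0.07 without acupoint mouse 2. In the same settings the difference from MPTP was 0.33 and 0.59, and from non-acupoint -0.59 and -0.33. Without MPTP mouse 1 the MPTP difference from controls was -0.43, and without MPTP mouse 2 it was -0.61. Averaged over the 3 MPTP-treated groups the difference from controls was -0.06 (SE 0.11), since these groups lay on both sides of the controls.

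Markers of ependymal cells, the ciliated cells that line the ventricles, moved with Spata18. All 9 listed markers were tested. Relative to controls their mean was -0.53 and -0.34 in the MPTP mice, 0.12 and -0.08 in the acupoint mice and 0.16 and 0.39 in the non-acupoint mice, so the order of the mice was that of Spata18, with the controls between. All 9 were below the control mean in each MPTP mouse, and 8 and 9 of 9 were above it in the non-acupoint mice. The part of ependymal content in the Spata18 values was not tested, and low ependymal markers in the MPTP arrays were known when this comparison was chosen.

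**Figure D2:**
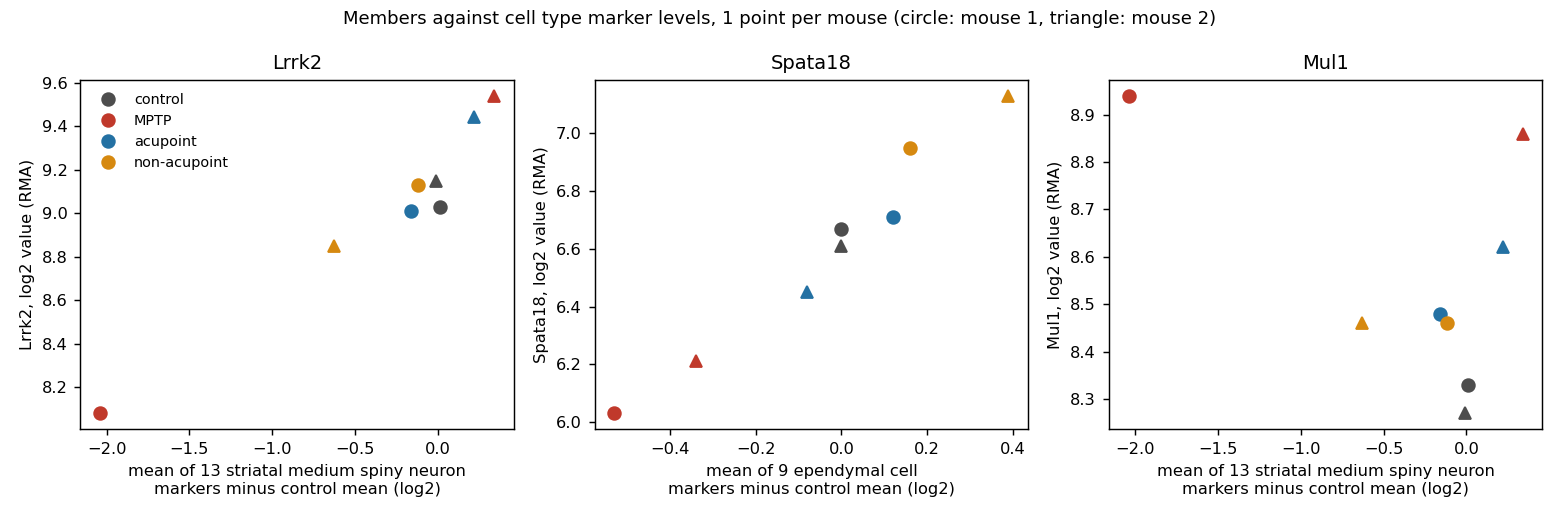
Each panel sets a gene's log2 value (vertical axis) against the mean level of a cell type's markers relative to controls (horizontal axis, log2), 1 point per mouse, coloured by group. Lrrk2 follows the 13 medium spiny neuron markers from MPTP mouse 1 (8.08) up to MPTP mouse 2 (9.54), and Spata18 follows the 9 ependymal markers. Mul1 is at 8.94 in MPTP mouse 1 and 8.86 in MPTP mouse 2, at striatal marker means of -2.04 and 0.34. Mul1 is not drawn against the ependymal markers, which were low in both MPTP mice.

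Park7, whose product DJ-1 responds to oxidised cysteines and helps protect mitochondria, had the third such pattern, on a small scale. Its log2 values were 11.07 and 11.07 in control mice, 11.22 and 11.29 in MPTP mice, 11.09 and 11.11 in acupoint mice and 11.08 and 11.16 in non-acupoint mice. Both MPTP mice were above all 6 others, and the needled groups overlapped each other just above the controls. The MPTP mean exceeded the control mean by 0.19 (SE 0.09, 95% interval -0.03 to 0.40, adjusted p = 0.93 in limma). The differences of the acupoint and non-acupoint groups from MPTP were -0.15 (SE 0.09, adjusted p = 0.90) and -0.14 (SE 0.09, adjusted p = 0.76). The excess over controls was 0.22 without MPTP mouse 1 and 0.15 without MPTP mouse 2.

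Pink1, the kinase that marks damaged mitochondria, had log2 values of 9.74 and 9.66 in control mice and 9.95 and 9.92 in MPTP mice. The needled mice had 9.59 and 9.99 (acupoint) and 9.66 and 9.74 (non-acupoint). Both MPTP mice were above the controls and the non-acupoint mice, but acupoint mouse 2 had the highest value of all and acupoint mouse 1 the lowest. The MPTP excess over controls was 0.24 (SE 0.14, 95% interval -0.10 to 0.57, adjusted p = 0.93 in limma). The non-acupoint group differed from MPTP by -0.23 (SE 0.14, adjusted p = 0.75) and the acupoint group by -0.15 (SE 0.14, adjusted p = 0.90), which became 0.06 without acupoint mouse 1. Non-acupoint and control means were both 9.70.

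Uchl1, an abundant ubiquitin hydrolase of neurons, and Fbxo7, the substrate-binding subunit of an SCF ubiquitin ligase, were high mainly in MPTP mouse 1. Uchl1 had log2 values of 11.36 and 11.34 in control mice, 11.95 and 11.45 in MPTP mice, 11.29 and 11.50 in acupoint mice and 11.18 and 11.50 in non-acupoint mice. The MPTP mice were above the controls, but MPTP mouse 2 was below 1 mouse of each needled group. Its MPTP excess of 0.35 (SE 0.19, 95% interval -0.10 to 0.79, adjusted p = 0.93) was 0.10 without MPTP mouse 1. Fbxo7 had values of 8.78 and 8.77 in control mice, 9.10 and 8.73 in MPTP mice, 8.90 and 8.76 in acupoint mice and 8.79 and 8.92 in non-acupoint mice. All neighbouring groups overlapped, and the MPTP difference of 0.15 (SE 0.14, adjusted p = 0.93) was -0.04 without MPTP mouse 1. Against MPTP, Uchl1 differed by -0.30 (SE 0.19) in the acupoint and -0.35 (SE 0.19) in the non-acupoint group, with adjusted p = 0.90 and 0.74 in limma. These differences were -0.05 and -0.10 without MPTP mouse 1, and -0.55 and -0.60 without MPTP mouse 2.

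Atp13a2, a lysosomal ATPase that exports polyamines, and Vps35, the core subunit of the retromer that returns receptors from endosomes, showed the smallest spread outside MPTP mouse 1. Atp13a2 had log2 values of 7.95 and 7.96 in control mice, 8.53 and 7.97 in MPTP mice, 7.90 and 7.95 in acupoint mice and 7.98 and 8.00 in non-acupoint mice. Apart from MPTP mouse 1, no mouse was more than 0.10 from another. Its MPTP difference was 0.30 (SE 0.17, adjusted p = 0.93), or 0.02 without MPTP mouse 1. With MPTP mouse 1 as the only MPTP array the difference was 0.58. In the same setting the differences from MPTP were -0.60 in the acupoint and -0.54 in the non-acupoint group, and both rest on that 1 array. Vps35 lay between 10.26 and 10.43 in all 8 mice, with group means of 10.32 in control mice, 10.34 in MPTP, 10.39 in acupoint and 10.37 in non-acupoint mice. All its groups overlapped their neighbours, and its MPTP difference of 0.02 had a 95% interval of -0.20 to 0.24.

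Lrrk2, a large kinase that phosphorylates Rab GTPases and that medium spiny neurons express strongly, split the MPTP group. The probe set for the annotated transcripts had log2 values of 9.03 and 9.15 in control mice and 8.08 and 9.54 in MPTP mice, which were the lowest and the highest of all 8. Acupoint mice had 9.01 and 9.44 and non-acupoint mice 9.13 and 8.85. All groups overlapped their neighbours, and the gap of 1.46 between the MPTP mice compares with a median gap of 0.20 over all probe sets tested in that group. The MPTP difference from controls was -0.28 (SE 0.42, adjusted p = 0.94), but 0.45 without MPTP mouse 1 and -1.01 without MPTP mouse 2. Each of these settings rests on 1 MPTP array. The differences from MPTP were 0.42 (SE 0.42) in the acupoint and 0.18 (SE 0.42) in the non-acupoint group, and without MPTP mouse 1 they were -0.31 and -0.55. Without MPTP mouse 2 these differences were 1.15 and 0.91. The medium spiny neuron markers ran alongside, at -2.04 and 0.34 in the MPTP mice, -0.16 and 0.22 in the acupoint mice and -0.12 and -0.63 in the non-acupoint mice. Their part in the Lrrk2 values was not tested.

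A second Lrrk2 probe set, annotated to a single cDNA record, was dim, with a mean of 4.81 against a filter at 5.25, and was not tested. It had log2 values of 5.13 and 4.99 in control mice, 4.64 and 4.81 in MPTP mice, 5.18 and 5.03 in acupoint mice and 4.33 and 4.33 in non-acupoint mice. The lowest values were those of the non-acupoint mice, and the MPTP mice lay between them and the controls. Whether these dim values stand above background is unknown, so nothing is read from their differences, and this probe set enters no count or range given below.

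**Figure D3:**
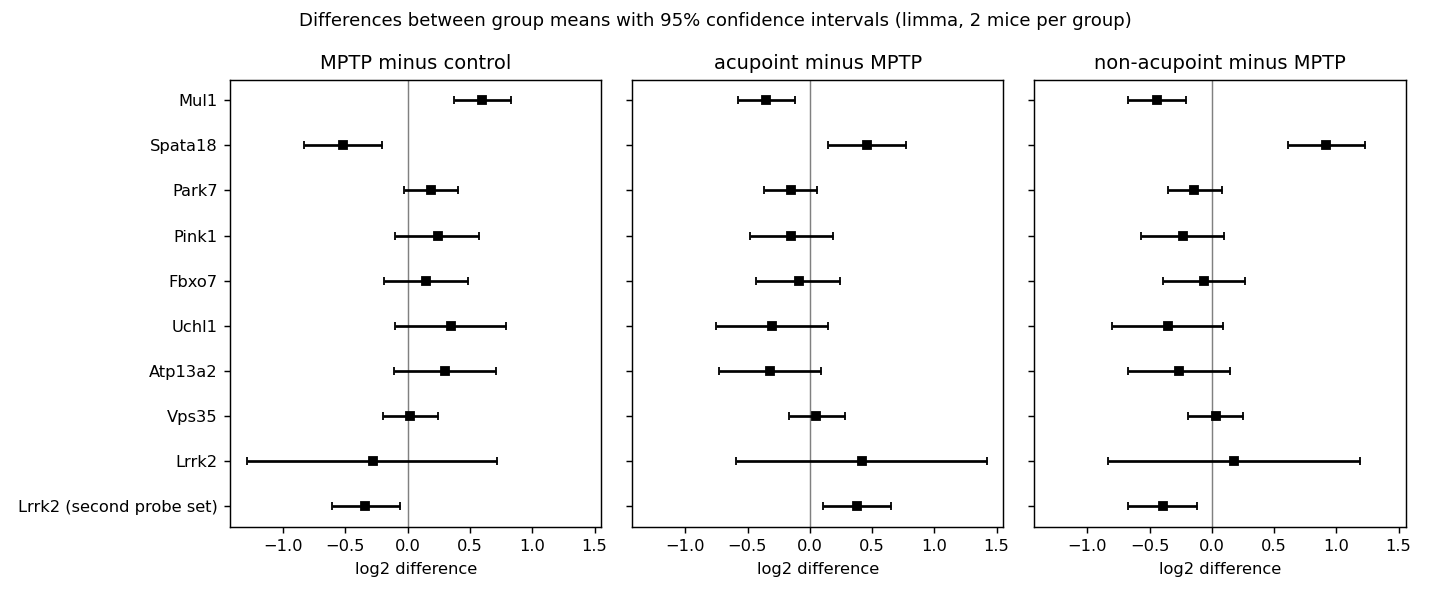
Differences between group means on the log2 scale (horizontal axis) with 95% confidence intervals from limma for the 10 probe sets (vertical axis) in 3 comparisons that share the MPTP arrays. The tested Lrrk2 probe set has the widest interval (-1.29 to 0.72 for MPTP minus control). Mul1 and Spata18, chosen with results known, and the dim second Lrrk2 probe set are shown as a description. Their intervals are not a test, and nothing is read from where they lie.

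Counted together, 7 of the 9 genes had a higher mean in MPTP than in control mice and 2 a lower one. In 5 genes both MPTP mice lay above both controls and in 1 both lay below, where 17.3% and 12.1% of all 16342 probe sets tested did so. This comparison chose Mul1, so nothing is read from the full count. Among the 7 parkinsonism genes, Park7, Pink1, Uchl1 and Atp13a2 had MPTP mice above both controls and none had both below. In 2 of these, MPTP mouse 2 was only just above the higher control (Atp13a2 7.97 against 7.96, Uchl1 11.45 against 11.36). Without MPTP mouse 1 their differences were 0.02 and 0.10. The median difference of the 7 genes was 0.19, against 0.015 over all probe sets. No probe set (0%) passed an adjusted p of 0.05 in limma, and the 652 with an unadjusted p under 0.05 included none of these 7 genes. If no probe set differed, 817 of the 16342 would be expected under that unadjusted threshold by chance, here and in each comparison below.

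In the acupoint group, 5 of the 7 parkinsonism genes had lower means than in MPTP mice, and Park7 and Atp13a2 had both mice below both MPTP mice. Of all probe sets 18.9% did so, and 8.41% lay above. Against the same MPTP mice, 5 of the 7 were also lower in the non-acupoint group, with Park7 and Pink1 below without overlap, where 17.7% of probe sets lay below and 15.4% above. Both comparisons start from the MPTP arrays that were high in these genes, so they share those values with the first comparison. The medians were -0.15 and -0.14, against -0.036 and -0.007 over all probe sets. No probe set (0%) passed in limma in either, and the 588 and 1076 with an unadjusted p under 0.05 included none of the 7 genes.

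Between the needled groups, over the tested probe sets of the 7 parkinsonism genes, differences of acupoint minus non-acupoint ran from -0.06 for Atp13a2 to 0.24 for Lrrk2, and only Atp13a2 had mice that did not overlap, below the non-acupoint mice, as had 24.6% of all probe sets, with 13.9% above. The 95% intervals were narrowest for Park7 (-0.23 to 0.20) and widest for Lrrk2 (-0.77 to 1.24), so differences inside them cannot be seen with these arrays. Again 0% passed in limma, while 526 probe sets had an unadjusted p under 0.05.

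The needled groups were also set against controls, which leaves out the MPTP-only arrays. Over the tested probe sets of the 7 genes, acupoint differences ran from -0.02 to 0.13 and only Park7 had separate groups, with both acupoint mice above the controls by a difference of 0.03, where 12.7% of probe sets lay above and 21.2% below. Non-acupoint differences ran from -0.10 (Lrrk2, 95% interval -1.11 to 0.91) to 0.09, with Park7, Atp13a2 and Fbxo7 separate and above, where 26.9% of probe sets lay above and 22.6% below. With all 6 MPTP-treated mice set against controls, Park7 was the parkinsonism gene in which all 6 were above (0.09, SE 0.07, adjusted p = 0.98), where 3.72% of probe sets lay above and 3.56% below. In limma 0% passed in these 3 comparisons, while 312, 988 and 552 probe sets had an unadjusted p under 0.05. With only the compared groups in the fit, 750 did for acupoint and 2139 for non-acupoint against control.

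The genes whose pattern over the 8 mice was most like a member's were found by the mean absolute difference between values centred on each gene's own mean. Candidates left out genes whose range over the 8 mice was much smaller than the member's. For Lrrk2 the closest were Htr1d, a serotonin receptor (0.032), Klhl2 (0.045) and Spata2l (0.048), out of 2411 candidates. Htr1d had log2 values of 5.86 and 7.33 in the MPTP mice and 6.82 and 6.93 in controls. For Mul1 they were Traf2, a signalling adaptor (0.062), Mpdu1 (0.076) and Trappc3 (0.076), out of 10285. Traf2 had 7.54 and 7.36 in MPTP mice against 7.03 and 6.96 in controls. For Spata18 they were Maats1 (0.062), the axon guidance gene Slit1 (0.062) and Ndnf (0.063), out of 4724. Maats1 had 5.45 and 5.71 in MPTP mice, 6.16 and 6.20 in control mice and 6.44 and 6.51 in non-acupoint mice. Slit1 had 7.19 and 7.30 in MPTP mice, 7.63 and 7.63 in control mice and 8.05 and 8.06 in non-acupoint mice. Both were picked for closeness to Spata18 over these same mice. Their low MPTP and high non-acupoint values follow from that choice.

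The pathways around these genes were followed through 15 lists with 161 genes tested. Between MPTP and control mice, 105 were higher and 56 lower, with a median of 0.059 against 0.017 over all genes, and 54.3% of all probe sets were higher. Limma called 0 at the adjusted threshold, and the redox gene Hagh (higher) and Rab3b and Txnip (lower) had an unadjusted p under 0.05. Of all 16342 probe sets, 652 had one. Separate groups were found in 22.4% of the 161 genes above and 9.94% below the controls, beside the 17.3% and 12.1% given above for all probe sets. The listed genes thus stood somewhat to the higher side of the background. This gap was not tested, and nothing is read from it.

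For the list counts that follow, 54.3% of all probe sets were higher, with 17.3% above and 12.1% below without overlap. Of the genes closest to PINK1, 9 of 12 in its import and processing were higher (median 0.059), with 4 above and 1 below without overlap. The import receptor gene Tomm70a had the largest difference, -0.36 (SE 0.32). Of the mitophagy receptors 7 of 9 were higher (median 0.033), led by Bcl2l13 at 0.12 (SE 0.10). Of the fusion, fission and transport genes 9 of 11 were higher (median 0.096), led by Trak1, which links mitochondria to motor proteins, at 0.19 (SE 0.10). Among 8 deubiquitinases and ligases of mitochondria, 6 were higher (median 0.057), led by the ubiquitin ligase gene Huwe1 at 0.11 (SE 0.10). Autophagy adaptors and their kinase were higher in 5 of 6 cases (median 0.089). Tbk1, which phosphorylates those adaptors, stood at 0.30 (SE 0.14, adjusted p = 0.93). The core autophagy genes were split, with 11 higher and 10 lower, and Gabarapl1, a gene of the family that coats autophagosomes, had the largest difference, -0.30 (SE 0.13). None of these genes had an unadjusted p under 0.05 in this comparison. The Tomm70a difference came from MPTP mouse 1 (10.26), since MPTP mouse 2 (11.36) was above both control mice (11.12 and 11.23).

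Of the other lists, lysosome genes were higher in 12 of 15 cases (median 0.118), led by Tfeb, a regulator of lysosome genes, at 0.29 (SE 0.19). Of these genes, 3 lay above and 1 below the controls without overlap. Here too 54.3% of all probe sets were higher, with 17.3% above and 12.1% below without overlap. Retromer genes were higher in 8 of 13 cases (median 0.040), led by the sorting nexin gene Snx1 at 0.26 (SE 0.17). Rab substrates and partners of LRRK2 were lower in 11 of 15 cases (median -0.012). Rab3b, a synaptic vesicle Rab, had the largest difference in any of the lists, -0.91 (SE 0.32, adjusted p = 0.93 in limma), from log2 values of 8.50 and 8.55 in control mice and 7.05 and 8.18 in MPTP mice. It was thus lowest in MPTP mouse 1, as Lrrk2 was, but also below controls in MPTP mouse 2. Genes of redox control and the glyoxalase route, to which DJ-1 has been tied, were higher in 8 of 12 cases (median 0.102), while Txnip, an inhibitor of thioredoxin, had a difference of -0.32 (SE 0.12, adjusted p = 0.93). p53 pathway genes were higher in 8 of 10 cases (median 0.057), led by Ccng1, a p53 target, at 0.22 (SE 0.22). The relatives and partners of ATP13A2, UCHL1 and FBXO7 had 2 of 4, 2 of 3 and 6 of 7 higher, led by Atp13a4 (0.17, SE 0.31), Uchl5 (0.23, SE 0.17) and Fbxo9 (0.23, SE 0.21). The remaining parkinsonism genes had 9 of 16 higher, led by the dopamine transporter gene Slc6a3 (0.60, SE 0.37). In several of these lists the leading gene was high in MPTP mouse 1 and not above both controls in MPTP mouse 2. Tfeb read 6.87 and 6.38 in the MPTP mice against 6.40 and 6.27 in control mice, and Snx1 9.19 and 8.69 against 8.69 and 8.68. Ccng1 read 10.52 and 9.91 against 9.91 and 10.08, Fbxo9 9.71 and 9.04 against 9.19 and 9.11, and Slc6a3 6.77 and 5.93 against 5.95 and 5.54. Atp13a4 (7.74 and 6.72 against 6.97 and 7.14) and Uchl5 (9.28 and 8.78 against 8.73 and 8.86) had the same split.

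Between non-acupoint and control mice, 96 of the 161 genes were higher and 65 lower (median 0.031 against 0.006, with 51.2% of all probe sets higher), and 35.4% had groups above and 13.7% below the controls without overlap, beside 26.9% and 22.6% of all probe sets. None passed in limma, and 4 higher genes and 1 lower, Atp13a5, had an unadjusted p under 0.05, as had 988 of all 16342 probe sets. Nfe2l2, the transcription factor NRF2 of the antioxidant response, had the largest difference, 0.74 (SE 0.14, adjusted p = 0.77). Its log2 values were 7.70 and 7.92 in control mice, 8.04 and 7.97 in MPTP mice, 8.16 and 8.22 in acupoint mice and 8.38 and 8.72 in non-acupoint mice, so all 6 MPTP-treated mice were above both controls. Igf2r, a receptor that the retromer recycles, had a difference of 0.43 (SE 0.10, adjusted p = 0.77), with 7.85 and 7.94 in control mice and 8.35 and 8.31 in non-acupoint mice. Atp13a4, a relative of Atp13a2, stood at 0.47 (SE 0.31) and the lysosomal membrane gene Lamp2 at 0.39 (SE 0.23). The mitochondrial transport adaptor Trak2 stood at 0.38 (SE 0.12) and the p53 target Trp53inp1 at 0.36 (SE 0.10), each with an adjusted p of 0.77. In these same 2 mice, relative to controls, choroid plexus markers averaged 2.31 and 2.98, thalamus markers 0.28 and 1.46, ependymal markers 0.16 and 0.39 and medium spiny neuron markers -0.12 and -0.63. Their part in these differences was not tested.

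In the needled groups compared with MPTP, 49 of the 161 genes were higher and 112 lower after acupoint needling (median -0.059 against -0.040 over all genes, with 40.3% of all probe sets higher), and 78 were higher and 83 lower after needling at the hips, where 48.5% of all probe sets were higher. Between the needled groups, 51 were higher in acupoint mice and 110 lower (median -0.047 against -0.032 over all genes), where 41.7% of all probe sets were higher. Acupoint mice had 79 above and 82 below the controls, where 43.9% of all probe sets were higher, and the 3 MPTP-treated groups together had 100 above and 61 below, where 49.9% were higher. Limma called 0 of the 161 in each of these 5 comparisons, with 3, 4, 1, 1 and 6 genes at an unadjusted p under 0.05, in the order given. Of all 16342 probe sets, 588, 1076, 526, 312 and 552 were under it, in the same order.

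**Figure D4:**
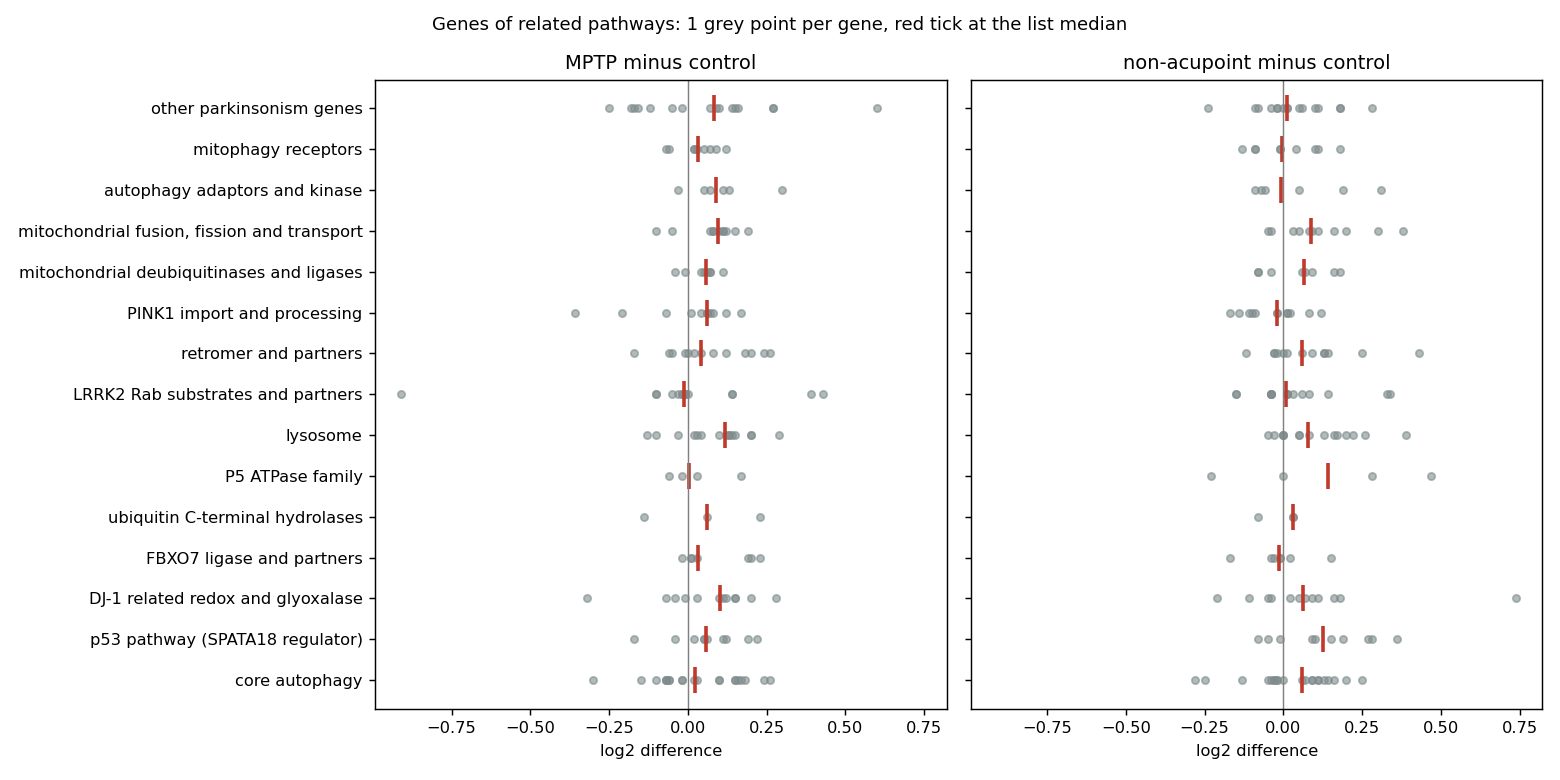
Log2 differences (horizontal axis) of the genes of 15 pathway lists (vertical axis), 1 grey point per gene and a red tick at each list's median, for MPTP minus control and non-acupoint minus control. List medians stay between -0.012 and 0.118 for MPTP, with Rab3b (-0.91) as the farthest point, and Nfe2l2 (0.74) is the farthest in the non-acupoint comparison.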

How the data were processed

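The deposited table holds 1 log2 value per probe set and array. Per the submitters' processing notes the authors used Affymetrix Expression Console and RMA, which quantile-normalises arrays, so a shift shared by most genes cannot be seen. Versions and genome build are not given in the sources used here. Of 35557 probe sets, 21789 had 1 symbol, and those with a mean of at least 5.25 over the 8 arrays, the 25th percentile, were tested (16342). All 9 genes had a tested probe set. Groups were compared in limma 3.58.1 (R 4.3.3), with 1 fit over 4 groups, eBayes and two-sided p-values adjusted over all 16342 probe sets by Benjamini-Hochberg. With 2 against 2, an exact permutation test cannot go below 0.333. The labels call the samples separate mice, and the number of arrays limits precision. The fit was also run on 5 simulated data sets with 200 changed probe sets. The outcome is not given here, and nothing is read from it for these arrays. Members, gene lists and comparisons were chosen with earlier results of these data known. Named pathway genes had the largest difference of their list, in the comparison described, except Hagh and Atp13a5, which, like the marker Drd1, were chosen after their values were seen. Of 279 list entries, 261 had a probe set of their own, and the rest were not analysed here. RefSeq promoter entries (GRCm38) gave the sequences. The alternatives were other filters, shrinkage, normalisation, array weights, a block, only the compared groups, and each array left out.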

Additional observations from a re-analysis of the deposited data

Results flagged for a closer look

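Spata18 lay on opposite sides of the controls in 2 groups that both received MPTP. Both mice of the MPTP group were below both controls (6.03 and 6.21 against 6.67 and 6.61, log2) and both non-acupoint mice were above them (6.95 and 7.13). The non-acupoint mean exceeded the MPTP mean by 0.92. This difference was not tested, because Spata18 was selected with results of these arrays known. The ependymal markers stood on the same sides of the controls. Their means were -0.53 and -0.34 in the MPTP mice and 0.16 and 0.39 in the non-acupoint mice. The part of ependymal content in the Spata18 values was not tested.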

How the results depend on the processing

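Counts of probe sets called by limma ran from 0 to 1607 for MPTP against control when 1 array was left out, 0 to 1453 for acupoint and 0 to 794 for non-acupoint against MPTP, and 0 to 70 for all MPTP-treated mice against control, the highest each time when MPTP mouse 2 was dropped. The array left on its own in a group is assumed to vary like the other groups. The remaining 3 comparisons kept 0 in every such fit. With all probe sets of the table tested, the count was 1 for MPTP and 1 for non-acupoint against control and 2 for all MPTP-treated mice. With only the compared groups in the fit it was 1 for acupoint and 2 for non-acupoint against control, and with array weights it was 1 for all MPTP-treated mice. The cause was not tested. The titles number the mice but do not say whether same-numbered mice were paired. Deviations of same-numbered mice correlated between -0.49 and 0.40 over the pairs of groups, which cannot settle it. With the replicate block every count stayed at 0, with 525, 497, 971, 420, 292, 869 and 459 probe sets at an unadjusted p under 0.05 in the 7 comparisons in order.

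Outside the fits that left out 1 array, 5 of 628 member differences changed sign, all of them near 0. They were Fbxo7 for acupoint minus non-acupoint (0.00014 after quantile normalisation again), Pink1 (-0.01) and Uchl1 (0.04) for non-acupoint minus control in that setting, and, with each array centred on its median, Uchl1 in the same comparison (0.04) and Atp13a2 for acupoint minus control (0.02). With 1 array left out, these differences changed sign. For MPTP minus control, Lrrk2 ran from -1.01 to 0.45, Vps35 from -0.04 to 0.07 and Fbxo7 from -0.04 to 0.33. For acupoint minus MPTP, Pink1 ran from -0.35 to 0.06, Lrrk2 from -0.31 to 1.15 and Fbxo7 from -0.28 to 0.09. For non-acupoint minus MPTP, Lrrk2 ran from -0.55 to 0.91, Atp13a2 from -0.54 to 0.02 and Fbxo7 from -0.25 to 0.12. For acupoint minus non-acupoint, Park7 ran from -0.05 to 0.02, Pink1 from -0.11 to 0.29, Vps35 from -0.02 to 0.06, Uchl1 from -0.11 to 0.21 and Fbxo7 from -0.10 to 0.04. For acupoint minus control, Pink1 ran from -0.11 to 0.29, Lrrk2 from -0.08 to 0.35, Uchl1 from -0.06 to 0.15, Atp13a2 from -0.05 to 0.0008 and Fbxo7 from -0.02 to 0.13. For non-acupoint minus control, Pink1 ran from -0.04 to 0.04, Lrrk2 from -0.24 to 0.04, Vps35 from -0.005 to 0.10 and Uchl1 from -0.17 to 0.15. For all MPTP-treated mice minus control, Lrrk2 ran from -0.33 to 0.16 and Vps35 from -0.01 to 0.10. For MPTP minus control with 1 array left out, Mul1 ran from 0.56 to 0.65 and Spata18 from -0.61 to -0.43. Their MPTP and control mice did not overlap, so leaving out 1 array could not change the sign, and nothing is read from the kept direction.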
